A study of Mus musculus with 44 samples.

Results

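The genes described here are 45 genes of the mouse lysosome, listed by symbol for their function; the list was drawn up with earlier results of these data known. They comprise 10 proteases (the cathepsins and legumain), 16 other hydrolases together with the activator and soluble proteins that work beside them, 9 membrane proteins, 2 transcription factors, and 8 genes of the proton pump V-ATPase and its accessory proteins. The peptidase Tpp1 was counted among the hydrolases, so the protease class does not hold it. All 45 were matched to Ensembl identifiers through GENCODE release M21 (GRCm38), out of 50714 genes that every count file listed. All 45 also passed the filter on low counts in each model.

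The tissue was the hippocampus together with the dorsal cortex, taken at postnatal days 28 to 29, and 44 RNA libraries were sequenced. Every animal carried CX3CR1-CreERT2 (+/-), a tamoxifen-dependent Cre recombinase driven from the locus of the fractalkine receptor, and RPL10a-GFP flox (+/-), a Cre-dependent ribosomal protein fused to GFP; the series' design text writes the second allele as fl/fl. The Cx3cr1 locus is active in microglia and also in border macrophages and circulating monocytes, so the tag is not limited to 1 cell type. Translating ribosome affinity purification (TRAP) recovers RNA bound to GFP-tagged ribosomes, here from whole homogenate (MG_TRAP) and from synaptosomes, a fraction of pinched-off synapses with the cell processes attached to them (PeMP_TRAP, named SN_TRAP in part of the labels). Input and SN_input are the total RNA of those same preparations. Tamoxifen (100 mg/kg, in sunflower seed oil and ethanol at postnatal days 15, 17 and 19) was given to replicates D to K, and controls A to C received vehicle per the labels, or were untreated per the design text. Each replicate letter had 1 library of each of the 4 fractions. The titles come in a pair of styles, which split the libraries into a first set (letters A to F, 24 libraries) and a second set (G to K, 20), and all control libraries were in the first. The labels do not say that a letter is 1 animal, so the p-values measure the spread between these samples.

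Lysosomes are acidic organelles in which the cell degrades material taken up by endocytosis and phagocytosis or delivered by autophagy. The V-ATPase pumps protons into the lumen, soluble hydrolases cut proteins, lipids and glycans at that low pH, and heavily glycosylated membrane proteins protect the limiting membrane and move products across it. TFEB and TFE3, 2 related transcription factors, activate many lysosomal genes by binding E-box sequences in their promoters. Microglia, the resident phagocytes of the brain, are known for high cathepsin and CD68 content, while neurons rely on V-ATPase in synaptic vesicles as well as in lysosomes.

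Libraries differed in depth and in the number of genes they held. Reads assigned to genes ranged from 746616 to 35584637 per library. Levels are given in CPM, read counts scaled to the library size, with each library size multiplied by its trimmed-mean (TMM) factor. These factors ranged from 0.354 in tamoxifen PeMP_TRAP replicate D to 1.62. On that scale a count of 3 represents 0.0792 to 4.89 CPM. This floor covers counting error only, because amplified copies of a molecule were counted as separate reads. The 5 PeMP_TRAP libraries of the second set stood apart: they had 20442643 to 35584637 reads, the most of that fraction, and the fewest genes detected (5372 to 7369, against 9415 to 22449 in all other libraries). The 15 microglial markers summed to a median of 214 CPM in tamoxifen Input and 21456 CPM in tamoxifen MG_TRAP, and to 2693 and 26256 CPM in SN_input and PeMP_TRAP (n = 8 each). Control immunoprecipitates held less of them, with 2275 to 5798 CPM in MG_TRAP and 646 to 14922 CPM in PeMP_TRAP (n = 3 each). Border macrophage markers (8 genes) summed to 1.18 to 18.1 CPM in tamoxifen Input and 59.7 to 292 CPM in tamoxifen MG_TRAP, and plasma and B cell genes (8) to 12.7 to 59.9 and 499 to 2208 CPM. In tamoxifen PeMP_TRAP the same lists summed to 0 to 389 and 217 to 4637 CPM, against 21.1 to 54.4 and 16.3 to 430 CPM in SN_input. These bulk values cannot separate the number of cells of a type from the amount of RNA per cell.

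The promoters of the members bear on the E-box that TFEB and TFE3 recognise. RefSeq windows of 300 bases (250 before to 50 after the annotated start, GRCm38.p6) were matched for 39 of the 45 genes, and the E-box core CACGTG, which reads the same on both strands, occurred in 12 of them (30.8%), against 8.09% of the 27025 genes in the table. By class it was found in 5 of 8 proteases, 3 of 15 hydrolases and activators, 2 of 8 membrane genes, 2 of 6 V-ATPase genes and neither of the 2 factors. The longer palindrome known as the CLEAR motif occurred in none of the 39 and in 0.370% of all genes, and TCACGTGA, an overlapping motif added after the first counts were seen, in 5 (12.8%, against 1.12%). A match to these letters is a description of the sequence and not a binding site. The 4 windows with CACGTG printed first belong to genes that were higher (Ctsd, Lamp1), lower (Mcoln1) or not past the threshold (Atp6v0d1) in the comparisons that follow, and the last 2 belong to Ctss and Laptm5, whose windows do not hold CACGTG and which were among the most enriched members; other E-box sequences were not searched. All run 5′ to 3′ on the strand of the gene, and capitals mark each CACGTG. The windows lie at chr7:142387778-142388077 on the minus strand (Ctsd), chr8:13158911-13159210 on the plus strand (Lamp1), chr8:3500269-3500568 on the plus strand (Mcoln1), chr8:105566015-105566314 on the minus strand (Atp6v0d1), chr3:95526536-95526835 on the plus strand (Ctss) and chr4:130913066-130913365 on the plus strand (Laptm5).
Ctsd: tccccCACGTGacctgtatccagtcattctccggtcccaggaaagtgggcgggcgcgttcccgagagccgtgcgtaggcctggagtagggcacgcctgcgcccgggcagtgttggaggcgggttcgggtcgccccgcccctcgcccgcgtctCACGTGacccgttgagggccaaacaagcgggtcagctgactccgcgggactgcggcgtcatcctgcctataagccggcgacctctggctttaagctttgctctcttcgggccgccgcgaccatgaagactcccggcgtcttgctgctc
Lamp1: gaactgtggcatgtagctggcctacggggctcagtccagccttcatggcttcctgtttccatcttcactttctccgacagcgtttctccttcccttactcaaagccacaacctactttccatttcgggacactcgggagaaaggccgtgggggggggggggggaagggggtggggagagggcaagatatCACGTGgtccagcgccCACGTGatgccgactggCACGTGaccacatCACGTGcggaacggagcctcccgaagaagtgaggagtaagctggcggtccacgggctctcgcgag
Mcoln1: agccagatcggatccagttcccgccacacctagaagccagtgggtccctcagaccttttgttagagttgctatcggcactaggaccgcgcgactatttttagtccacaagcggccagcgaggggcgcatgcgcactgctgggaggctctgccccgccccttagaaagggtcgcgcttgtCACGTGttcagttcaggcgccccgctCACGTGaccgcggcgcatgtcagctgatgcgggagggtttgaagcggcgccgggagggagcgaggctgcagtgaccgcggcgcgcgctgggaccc
Atp6v0d1: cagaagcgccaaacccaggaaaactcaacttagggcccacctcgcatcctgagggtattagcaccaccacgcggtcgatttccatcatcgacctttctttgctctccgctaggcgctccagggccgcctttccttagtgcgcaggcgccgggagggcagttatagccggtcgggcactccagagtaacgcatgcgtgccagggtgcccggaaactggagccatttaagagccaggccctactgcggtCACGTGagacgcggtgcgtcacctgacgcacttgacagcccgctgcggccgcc
Ctss: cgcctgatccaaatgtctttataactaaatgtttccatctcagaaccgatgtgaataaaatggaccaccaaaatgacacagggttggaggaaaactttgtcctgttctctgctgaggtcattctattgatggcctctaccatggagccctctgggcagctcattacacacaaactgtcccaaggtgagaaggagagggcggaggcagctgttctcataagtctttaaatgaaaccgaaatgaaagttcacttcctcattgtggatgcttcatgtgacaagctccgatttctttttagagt
Laptm5: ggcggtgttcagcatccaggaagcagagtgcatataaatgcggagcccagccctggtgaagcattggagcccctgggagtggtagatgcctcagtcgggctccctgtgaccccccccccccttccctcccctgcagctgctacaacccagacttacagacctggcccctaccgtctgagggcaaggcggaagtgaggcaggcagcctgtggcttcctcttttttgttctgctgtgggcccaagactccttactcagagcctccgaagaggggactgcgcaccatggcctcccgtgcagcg

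Ctsd held 2 copies of the core, Lamp1 4, Mcoln1 2 and Atp6v0d1 1. Members with and without the core were both enriched in MG_TRAP: of the 12 genes with it 5 were called higher and 0 lower, with a median log2 fold change of 1.67, and of the 27 without it 12 were called higher and 1 lower, with a median of 2.0. In PeMP_TRAP against SN_input the corresponding counts were 4 higher and 1 lower (median 1.01) and 9 higher and 1 lower (median 1.45).

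The first comparison asked which lysosomal RNAs were on tagged ribosomes relative to the total RNA of the tissue. In tamoxifen mice, lysosomal proteases, several hydrolases and the macrophage membrane proteins Laptm5 and Cd68 were far higher in MG_TRAP than in Input, whereas all 8 V-ATPase members had lower values. By edgeR's quasi-likelihood test with Benjamini-Hochberg adjustment over 15710 genes, 19 of 45 members were higher and 1 was lower, where 6.82% of all genes passed in either direction (733 or 4.67% higher, 338 or 2.15% lower). The members' median log2 fold change was 1.92, beside -0.14 for all genes. With size factors from relative log expression (RLE) the median of all genes moved to -0.66 and the split of calls to 594 higher and 528 lower, and 17 members were then higher and 2 lower. Groups of 8 libraries did not overlap for 23 members that were higher (5.46% of all genes) and 2 that were lower (3.6%, Gaa and Atp6v1h). The 15 microglial markers were higher as a whole (15 of 15). So were 3 of 8 listed border macrophage markers (Mrc1, Pf4 and Cbr2) and 4 of 8 listed plasma and B cell genes (Igkc, Jchain, Cd79b and Ighm). Not every gene of these 2 lists entered the test. Lower were 3 of 12 neuronal, 1 of 10 astrocyte and 2 of 10 oligodendrocyte markers. The part of these cell types in the members' changes was not tested.

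**Figure D1:**
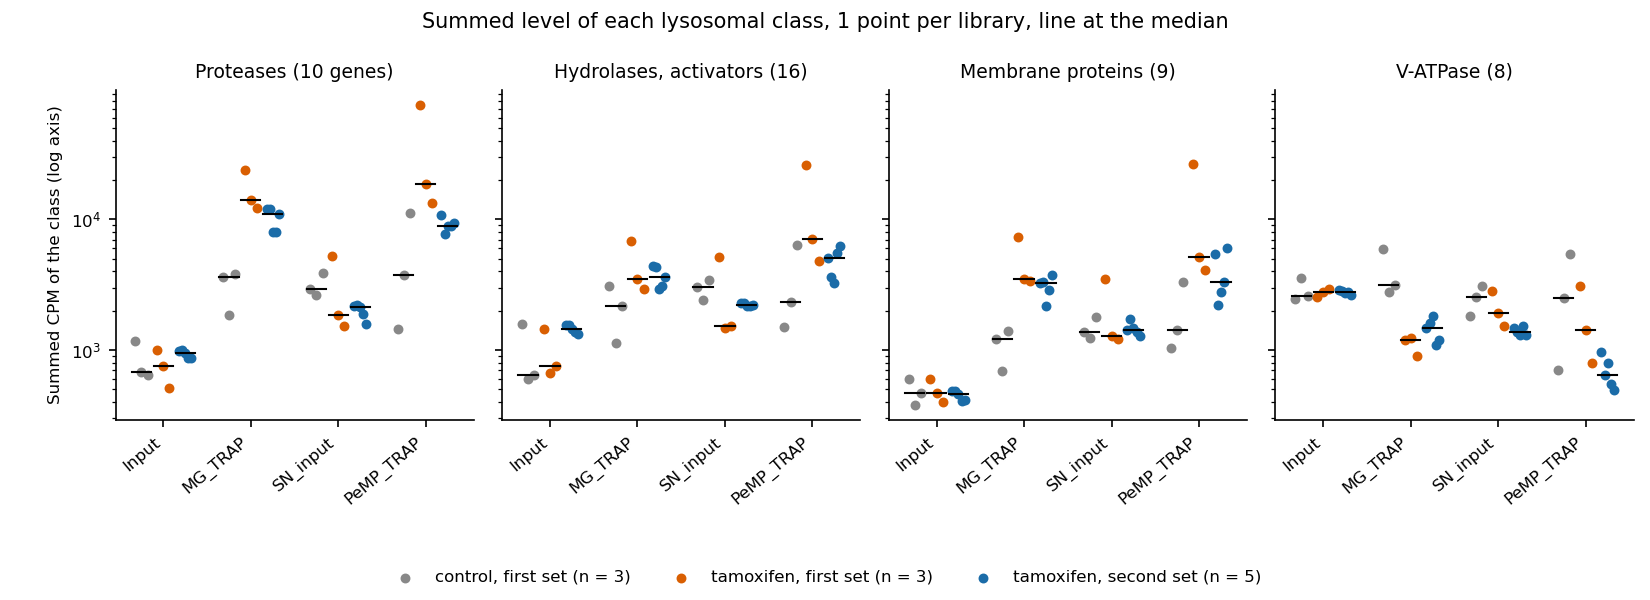
Summed CPM of 4 lysosomal classes (log axis) in the 4 fractions, with 1 point per library coloured by treatment and set and a line at each median. Proteases sit at 514 to 1000 CPM in tamoxifen Input and at 7928 to 23804 CPM in tamoxifen MG_TRAP, while V-ATPase genes sit at 2563 to 2908 CPM in tamoxifen Input and lower in both tamoxifen precipitates by their medians.

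The proteases were the class with the most calls, with 9 of 10 higher and a median log2 fold change of 4.52. Ctss, cathepsin S, a cysteine protease of antigen presenting cells, had a lowest, median and highest level of 16.7, 31.4 and 91.7 CPM in Input and 1943, 3481 and 7682 CPM in MG_TRAP. The lowest MG_TRAP library therefore lay above every Input library, and the log2 fold change was 6.91 ± 0.39 (SE, adjusted p = 2e-16). Ctsd, cathepsin D, the main aspartic protease of the lysosome, rose from 44.7, 119 and 135 CPM to 1249, 1838 and 5379.9 CPM, a log2 fold change of 4.32 ± 0.40 (adjusted p = 6.14e-11). Legumain (Lgmn), an asparaginyl endopeptidase that processes cathepsins, was at 29.4, 70.2 and 95.1 CPM in Input and 904, 2024 and 2765 CPM in MG_TRAP (4.85 ± 0.46, adjusted p = 1.34e-10). Ctsz, a carboxypeptidase, was at 5.42, 29.4 and 37.8 and 401, 706 and 1487 CPM in the same order (4.72 ± 0.51, adjusted p = 4.54e-09). None of these 4 genes had overlapping groups.

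The largest fold change of the class, 7.29 ± 1.04 (adjusted p = 2.41e-06), belonged to Ctsh, an aminopeptidase, whose Input level was near the floor at 0.0356, 2.47 and 5.4 CPM against 136, 263 and 559 CPM in MG_TRAP. Ctsb, a cysteine protease found in most cells, had the highest Input median of the proteases per kilobase of transcript (102 CPM per kb) and one of the smallest changes: its levels were 153, 484 and 578 CPM and 836, 1465 and 4171 CPM (1.92 ± 0.49, adjusted p = 0.00877). Ctsl, the related endopeptidase cathepsin L, changed by 2.37 ± 0.41 (adjusted p = 9.83e-05). Ctsa, a carboxypeptidase that also stabilises other hydrolases, and Ctsc, which activates serine proteases of immune cells, were higher by 3.03 ± 0.44 and 5.14 ± 1.36. Only Ctsf did not pass: its levels were 31.3, 36.9 and 62.1 CPM and 77.0, 137 and 229 CPM, higher in MG_TRAP in all 8 replicate letters, with a log2 fold change of 1.92 ± 0.87 and an adjusted p of 0.242.

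Among the 16 hydrolases and activators 6 were higher, none was lower, and the median log2 fold change was 2.12. Grn, the precursor of the granulins, which is required for normal lysosomal function, was at 25.2, 39.8 and 57.1 CPM in Input and 371, 701 and 1272 CPM in MG_TRAP (4.14 ± 0.44, adjusted p = 3.63e-09). Hexa, the alpha subunit of the hexosaminidase that degrades ganglioside GM2, was at 3.87, 31.3 and 52.2 and 236, 292 and 509.9 CPM (3.32 ± 0.53, adjusted p = 2.35e-05). Its cofactor Gm2a, which presents the ganglioside to the enzyme, was higher as well (2.24 ± 0.40, adjusted p = 0.000116). Npc2, the soluble carrier that hands cholesterol to the membrane protein Npc1, was at 49.2, 57.4 and 88.6 and 307, 533 and 667 CPM (3.13 ± 0.52, adjusted p = 4.57e-05). The alpha-mannosidase Man2b1 (3.95 ± 0.55) and the beta-glucuronidase Gusb (3.24 ± 0.88, adjusted p = 0.0139) completed the group.

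The remaining 10 hydrolases did not pass. Psap, the precursor of the saposins that help degrade sphingolipids, was the member with the highest Input median of this class per kilobase (295 CPM per kb) and had overlapping levels of 135, 784 and 914 CPM in Input and 202, 738 and 1896 CPM in MG_TRAP (0.56 ± 0.51, adjusted p = 0.701). Asah1, the acid ceramidase, had a log2 fold change of 2.62 ± 1.04 and Lipa, the acid lipase, one of 1.82 ± 1.21 (adjusted p = 0.151 and 0.533). Gaa, the acid alpha-glucosidase that degrades glycogen, went the other way from most of its class: it was at 85.2, 180.3 and 207 CPM in Input and 34.7, 56.3 and 81.9 CPM in MG_TRAP. The groups did not overlap and the value was lower in all 8 letters, but the log2 fold change of -1.58 ± 0.80 did not pass (adjusted p = 0.335).

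Of the 9 membrane proteins 4 were higher, with a wide range within the class. Laptm5, a lysosomal protein of blood-lineage cells, was at 20.2, 25.3 and 32.6 CPM in Input and 1273, 1929.9 and 4141 CPM in MG_TRAP (6.37 ± 0.44, adjusted p = 2.07e-14). Cd68, the macrophage member of the LAMP family, was at 7.02, 8.2 and 19.6 and 261, 406 and 862 CPM (5.62 ± 0.74, adjusted p = 4.23e-07). The broadly expressed relatives differed far less. Lamp1, a major glycoprotein of the lysosomal membrane, was at 97.2, 114 and 239 and 134, 237 and 1579 CPM (1.42 ± 0.45, adjusted p = 0.0459), and that call was lost when any of the 8 letters was left out. Lamp2, which also serves chaperone-mediated autophagy, was at 17.3, 29.0 and 54.3 and 42.2, 106 and 229 CPM (1.74 ± 0.56, adjusted p = 0.0518, not passing). Cd63, a tetraspanin of late endosomes, changed by 1.79 ± 0.51 (adjusted p = 0.02), a call lost when E, F, G or K was left out and in 7 of 9 alternative settings. Laptm4a (0.71 ± 0.44), the cholesterol exporter Npc1 (0.99 ± 0.90), Scarb2 (1.21 ± 0.59), which carries a hydrolase to the lysosome, and the calcium channel Mcoln1 (-0.32 ± 1.04) did not pass.

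The 2 transcription factors had low levels and did not pass. Tfeb was at 1.03, 7.23 and 11.8 CPM in Input and 9.95, 39.3 and 141 CPM in MG_TRAP (2.97 ± 1.12, adjusted p = 0.117). Tfe3 was at 6.97, 28.3 and 41.8 and 52.0, 91.8 and 233 CPM (1.97 ± 0.99, adjusted p = 0.323). For Tfe3 the lowest MG_TRAP library was above the highest Input library.

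No V-ATPase gene was higher, and 1 was lower. Their log2 fold changes ran from -1.51 to -0.43, with a median of -0.97, and all 8 were negative under each of the 18 settings tried. Atp6v1e1, the E subunit of the peripheral stalk of the pump, was at 432, 479 and 1839 CPM in Input and 106, 189 and 519.5 CPM in MG_TRAP and was the 1 gene called lower (-1.51 ± 0.46, adjusted p = 0.0359), a call that was lost when E, F, G, H, I or K was left out. Atp6v1a, the catalytic A subunit, was at 260.0, 417 and 446 and 104, 179 and 364 CPM (-0.92 ± 0.65, adjusted p = 0.571), and Atp6v1b2, the brain-type B subunit, at 252, 533 and 759 and 60.1, 226 and 509.5 CPM (-1.02 ± 0.81, adjusted p = 0.636). Of the membrane sector, Atp6v0d1 had a log2 fold change of -0.43 ± 0.43, and the accessory proteins Atp6ap1 and Atp6ap2 had -0.85 ± 0.46 and -0.70 ± 0.94, none of them passing. Atp6v0c, the proton-carrying ring subunit, split by set: Input held 20.6, 1.94 and 5.16 CPM in D, E and F and 496, 518, 488, 515 and 482 CPM in G to K. All fractions of the first set showed the same low level, between 0 and 104 CPM over treatments, and GENCODE lists pseudogenes named after this gene and after Cd63, so both levels are uncertain.

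**Figure D2:**
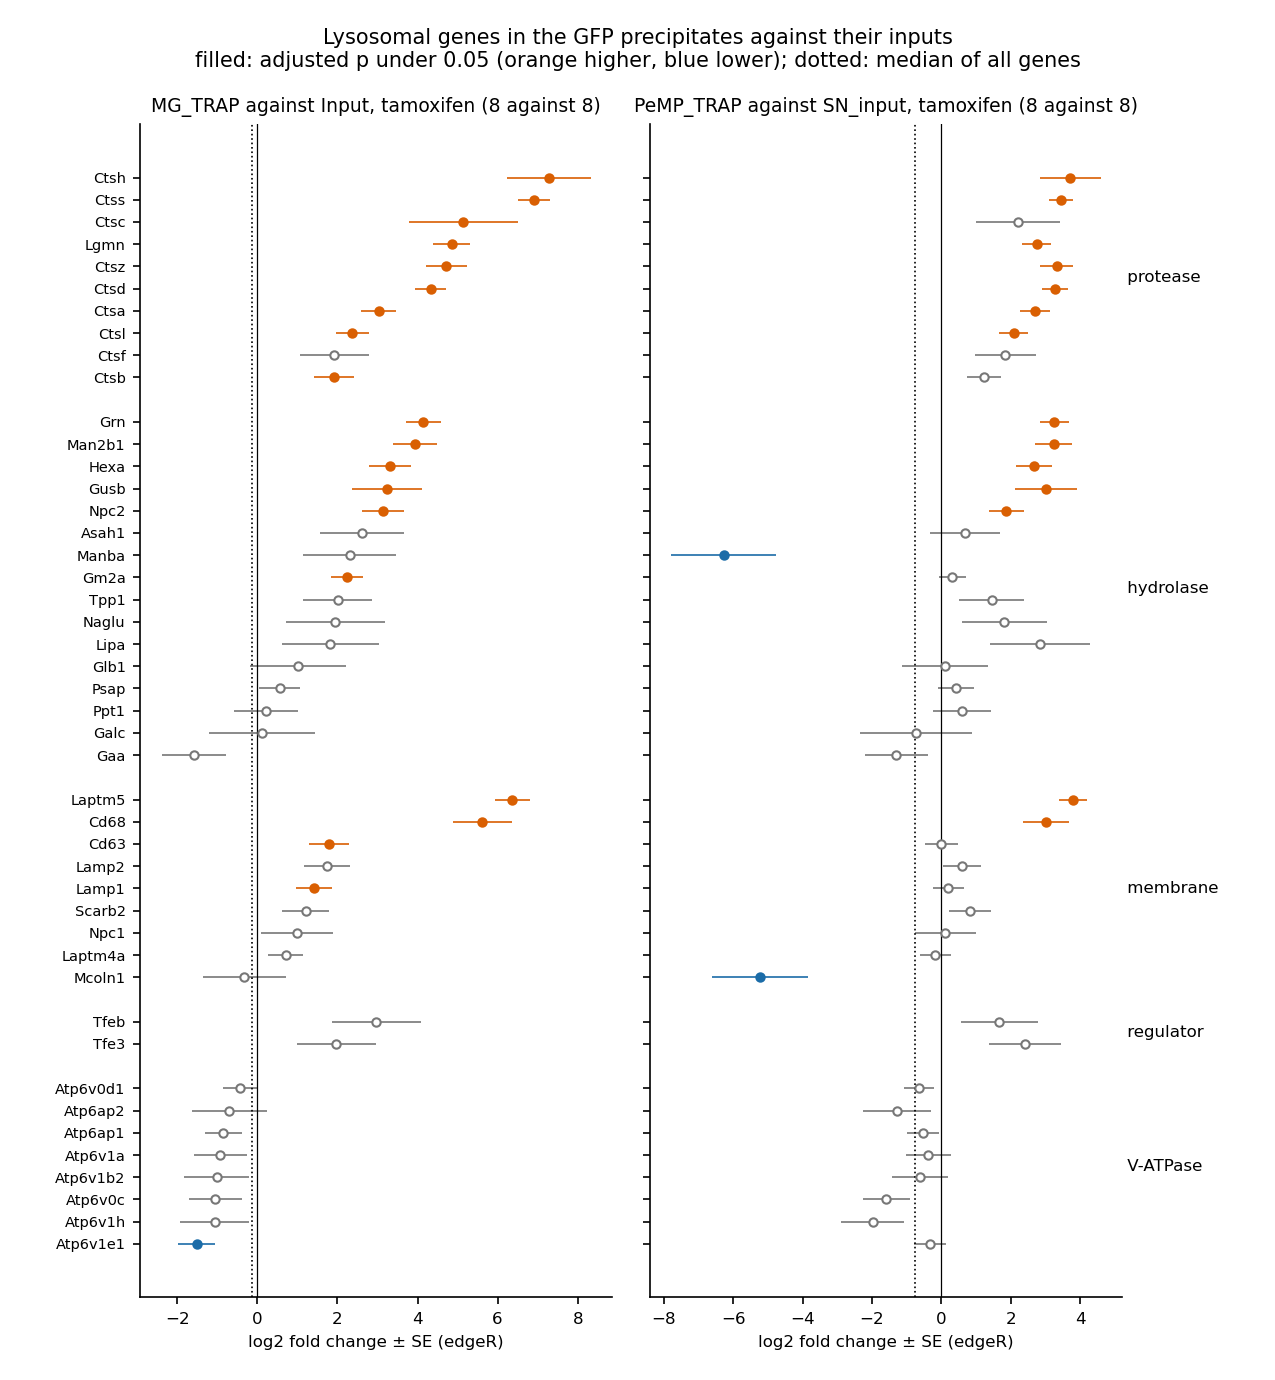
Log2 fold change with its standard error (x axis) of the 45 genes (y axis, by class) in MG_TRAP against Input and in PeMP_TRAP against SN_input, 8 tamoxifen libraries against 8, with filled points for adjusted p under 0.05 and a dotted line at the median of all genes. Proteases lie to the right in both panels, V-ATPase genes lie left of 0 in both (in PeMP_TRAP up to 2 of 8 lie right of it under other settings), and Manba and Mcoln1 lie far left in the synaptosome panel only.

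Other lysosomal genes, a separate list of 49 of which 47 were tested, gave 8 higher and 0 lower, with a median of 1.02. Among them were Dnase2a (4.39), Cd164 (3.10), Litaf (3.09), Atp6v0e (2.51), Fuca1 (1.85) and Atp6v1g1 (1.23), and 1 gene of this list is also among the 15 microglial markers. Of the 11 further V-ATPase genes in that list 2 were thus higher and none lower, with a median of -0.28, so the lower values of the 8 V-ATPase members did not extend to every subunit.

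The order of levels differed between total and ribosome-bound RNA. Per kilobase of transcript, the highest medians in tamoxifen Input were those of Atp6v0c (410.1 CPM per kb), Atp6v1e1 (365) and Psap (295). That order is the second set's: Atp6v0c, whose level is uncertain, was at 4.37 CPM per kb in the first set and 419 in the second, Atp6v1e1 at 1024 and 361, and Psap at 59.6 and 303. In MG_TRAP the highest medians were those of Ctss (2569), Lgmn (1017), Ctsd (864) and Laptm5 (742), where Lgmn was at 466 in the first set and 1069 in the second, and in PeMP_TRAP those of Ctss (3090.1), Ctsd (1161), Laptm5 (1129) and Ctsz (627). In CPM, the ranges of Lgmn (904 to 2765), Ctsd (1249 to 5379.9) and Laptm5 (1273 to 4141) overlapped one another in MG_TRAP.

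The synaptosome fraction itself was compared with the homogenate to see what the preparation carried before any precipitation. In SN_input 13 of 45 members were higher than in Input and none was lower, where 2.55% of all genes passed (327 or 2.08% higher, 73 or 0.465% lower), and the medians were 1.03 for members and -0.02 for all genes. The groups did not overlap for 13 members that were higher (2.66% of all genes) and 1 that was lower (2.12%, Atp6v1b2). Of the proteases Ctss was at 241, 463 and 1372 CPM in SN_input (3.96 ± 0.34, adjusted p = 8.35e-11), and Ctsd at 322, 414 and 521 CPM (1.91 ± 0.36, adjusted p = 0.000531). Both lay above their Input ranges in every library. Cd63 had a lowest level of 265 and a median of 365 CPM in SN_input, above its MG_TRAP median of 180.2 CPM, with a log2 fold change over Input of 2.88 ± 0.53 (adjusted p = 0.000448). Laptm5 (3.68 ± 0.39), Cd68 (2.59 ± 0.64), Grn (2.21 ± 0.41), Hexa (2.16 ± 0.51), Gm2a (2.28 ± 0.40), Npc2 (2.15 ± 0.50), Man2b1 (1.98 ± 0.50), Ctsh (3.05 ± 0.85), Ctsz (2.38 ± 0.46) and Lgmn (1.79 ± 0.40) were the others. V-ATPase genes had 0 calls and a median of -0.43, whose sign changed among the 18 settings tried (-1.34 to 0.37).

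This comparison moved with the scaling. With RLE size factors 7 members were higher and 0 lower while all genes split into 134 higher and 109 lower (median -0.72), and with total counts 3 members were higher and 2 lower while all genes split into 93 higher and 230 lower (median -1.07). In the first set alone no member passed (0.0463% of all genes were higher). SN_input replicate D, of that set, stood apart. Its members summed to 16744.5 CPM, beside a median of 7071 CPM over the 8 tamoxifen SN_input libraries, and it had 10023 genes detected. Microglial markers were called higher in SN_input for 13 of 15 genes. Also higher were 4 of 10 astrocyte and 3 of 10 oligodendrocyte markers and 1 of 8 listed border macrophage markers (Mrc1), not all of which were tested. The oligodendrocyte sum had a median of 4702 CPM in Input and 33561 CPM in SN_input. Their part in the members' values was not tested.

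The next comparison set the synaptosomal precipitate against its own input, to ask which lysosomal RNAs were on tagged ribosomes in that fraction. In PeMP_TRAP 14 members were higher than in SN_input and 2 were lower, where 32.3% of all genes passed, most of them lower (966 higher, 4108 or 26.1% lower). The share of members called was therefore close to that of all genes, and the direction differed: 6.15% of all genes were higher. The medians were 0.82 for the members and -0.75 for all genes. Groups did not overlap for 6 members that were higher (0.56% of all genes) and 1 that was lower (3.55%). Microglial markers were higher in 15 of 15 cases, and 9 of 12 neuronal, 6 of 10 astrocyte and 10 of 10 oligodendrocyte markers were lower. Of 8 genes listed for each, plasma and B cell genes gave 5 higher and 1 lower, and border macrophage markers 0 higher and 2 lower. Endothelial markers gave 1 higher and 4 lower. Not every gene of these lists entered the test. The part of these cell types in the members' changes was not tested.

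Proteases again had the most calls, with 7 of 10 higher and a median of 2.73. Ctss was at 241, 463 and 1372 CPM in SN_input and 1423, 4187 and 27154 CPM in PeMP_TRAP, without overlap (3.45 ± 0.34, adjusted p = 4.1e-09). Ctsd was at 322, 414 and 521 and 2054, 2469 and 16486 CPM, also without overlap (3.28 ± 0.38, adjusted p = 1.14e-07). Ctsz was at 82.5, 115 and 376 and 576, 904 and 7141 CPM (3.33 ± 0.48, adjusted p = 7.11e-06). In all 3 genes the highest PeMP_TRAP value came from replicate D, with 27154, 16486 and 7141 CPM, and every call held without it. Without its TMM factor Ctss was at 9605 CPM in that library. Lgmn (2.75 ± 0.42), Ctsl (2.09 ± 0.41), Ctsa (2.71 ± 0.44) and Ctsh (3.72 ± 0.87) were also higher. Ctsb (1.24 ± 0.50, adjusted p = 0.0528), Ctsf (1.85 ± 0.88, adjusted p = 0.105) and Ctsc (2.22 ± 1.21) did not pass. For Ctsc, PeMP_TRAP held 559, 12.4, 53.8, 0, 0, 140.1, 0 and 0 CPM in D to K, so that 4 of the 5 second-set libraries had no read while I had 3818 reads.

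In the hydrolase class Grn was at 95.6, 159 and 659.6 CPM in SN_input and 320.3, 1234 and 8238 CPM in PeMP_TRAP (3.26 ± 0.42, adjusted p = 1.06e-06). Hexa was at 98.5, 108 and 449.7 and 20.7, 777 and 3869 CPM (2.68 ± 0.52, adjusted p = 0.000239). Npc2 was at 149.6, 268 and 337 and 6.65, 706 and 3401 CPM (1.88 ± 0.51, adjusted p = 0.00438). The low ends of Hexa and Npc2 came from 1 second-set library each, I and J, while their other PeMP_TRAP libraries were at or above 462 and 427 CPM. Man2b1 (3.25 ± 0.53) and Gusb (3.02 ± 0.90, lost without D, 1.98 with an adjusted p of 0.0537) were the other 2. Gm2a, higher in both MG_TRAP and SN_input, did not pass here, at 115, 474 and 587 and 184, 394 and 841 CPM (0.32 ± 0.38, adjusted p = 0.559). Psap (0.43 ± 0.51), Asah1 (0.69 ± 1.01), Lipa (2.84 ± 1.44) and Gaa (-1.29 ± 0.92) did not pass.

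The 2 genes that were lower had few reads in PeMP_TRAP. Manba, the beta-mannosidase, had no read in 6 PeMP_TRAP libraries and 1 read in each of D and E, against 0, 2.74 and 18.6 CPM in SN_input. Its fitted log2 fold change of -6.27 (adjusted p = 0.00172) depends on the prior count and is no bound, and the SN_input mean was itself under the highest floor, so no fold is given. Mcoln1 was at 46.8, 58.1 and 99.7 CPM in SN_input and 0.449, 14.6, 19.6, 0, 0, 0, 0 and 0 CPM in PeMP_TRAP from D to K, without overlap (-5.24 ± 1.38, adjusted p = 0.00351). Neither call held in the first set alone.

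Laptm5 and Cd68 were the 2 membrane genes that rose. Laptm5 was at 138, 339.9 and 435 CPM in SN_input and 1653, 2935 and 17034 CPM in PeMP_TRAP (3.81 ± 0.40, adjusted p = 1.41e-08), and its groups did not overlap. Cd68 was at 33.7, 37.3 and 299 and 2.38, 296 and 4799 CPM (3.02 ± 0.66, adjusted p = 0.000783); its PeMP_TRAP values from D to K were 4799, 439, 292, 368, 43.1, 119, 301 and 2.38 CPM, with D highest and K lowest. Cd63 (0.00 ± 0.48), Lamp1 (0.20 ± 0.44), Lamp2 (0.59 ± 0.55), Laptm4a (-0.17 ± 0.44) and Npc1 (0.12 ± 0.89) had values near 0 and did not pass. Tfeb (1.67 ± 1.11, adjusted p = 0.261) and Tfe3 (2.41 ± 1.04, adjusted p = 0.0722) did not pass either.

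The V-ATPase genes had 0 calls of 8, with log2 fold changes from -1.98 (Atp6v1h) to -0.32 (Atp6v1e1). Their median of -0.62 was slightly above the median of all genes (-0.75), and 5 of the 8 lay above it. Up to 2 of the 8 values were positive in the other settings. The unadjusted p was under 0.05 for 2 of them (41.5% of all genes), Atp6v0c (-1.58 ± 0.68) and Atp6v1h (-1.98 ± 0.90). The other lysosomal genes gave 7 higher, among them Dnase2a (3.64), Atp6v0e (2.06) and Fuca1 (1.65), and 3 lower (Ctsk, Ids and Atp6v0e2), with a median of 0.03.

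The precipitates of the synaptosome fraction and of the whole homogenate were then compared with each other. Most members did not pass: 3 were higher in PeMP_TRAP, 2 were lower and 40 did not pass, where 25.2% of all genes passed (498 or 3.17% higher, 3454 or 22.0% lower) and the medians were 0.08 and -0.57. Grn (1.33 ± 0.40, adjusted p = 0.0113), Hexa (1.53 ± 0.50, adjusted p = 0.021) and Laptm5 (1.11 ± 0.36, adjusted p = 0.0184) were the 3 higher genes. With RLE size factors or total counts none of the 3 passed, and the Hexa call was lost in all 9 alternative settings. Ctss differed by 0.50 ± 0.30 (adjusted p = 0.251), with MG_TRAP at 1943 to 7682 CPM and PeMP_TRAP at 1423 to 27154 CPM. Manba was 1 of the 2 lower genes: MG_TRAP held 0.385, 13.4 and 57.7 CPM and every PeMP_TRAP library had at most 1 read. In CPM without TMM factors it was at least 5.48-fold lower, taking 3 counts in the shallowest library as the floor. That bound covers counting error only, and it rests partly on second-set libraries that detected few genes. Mcoln1 was at 6.56, 28.7 and 46.9 CPM in MG_TRAP and lower in PeMP_TRAP (-4.14 ± 1.36, adjusted p = 0.0211), a call lost when H, I, J or K was left out. No member had groups without overlap in either direction, and 0.0955% of all genes did so as higher and 1.77% as lower.

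The difference between the enrichments of PeMP_TRAP over SN_input and of MG_TRAP over Input was tested as an interaction. It equals the log2 ratio of PeMP_TRAP to MG_TRAP less that of SN_input to Input. For 7 members the enrichment in the synaptosome fraction was smaller than in the homogenate and for none was it larger, where 11.3% of all genes passed (61 or 0.388% larger, 1709 or 10.9% smaller). These were Ctss (-3.45 ± 0.44, adjusted p = 1.04e-05), Ctsh (-3.56 ± 1.15, adjusted p = 0.0368), Lgmn (-2.10 ± 0.56, adjusted p = 0.0113), Laptm5 (-2.56 ± 0.51, adjusted p = 0.00159), Cd68 (-2.60 ± 0.87, adjusted p = 0.0459), Gm2a (-1.92 ± 0.54, adjusted p = 0.016) and Manba (-8.58, a fitted value that rests on PeMP_TRAP libraries at 0 or 1 read). Of the 7 genes all but Manba were also called higher in SN_input than in Input, and that ratio is subtracted here. Laptm5 was itself called higher in PeMP_TRAP than in MG_TRAP. A smaller enrichment is thus not a lower level in PeMP_TRAP. Microglial markers showed the same smaller enrichment in 13 of 15 cases. The members' median was -0.84 and that of all genes -0.79, so as a list the members did not stand apart here, and V-ATPase genes had a median of 0.06 (-1.19 to 0.58 over 17 settings). Leaving out G, H, I, J or K ended the Cd68 call, H, I or K the Gm2a call, and E, F, G, H, I or J the Ctsh call.

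Detection in PeMP_TRAP depended on the set. All 45 members had at least 1 read in every tamoxifen MG_TRAP library. In PeMP_TRAP 41 to 45 were detected in D, E and F and 32 to 36 in G to K, although the latter had the most reads of that fraction. In those 5 libraries Galc, Manba and Mcoln1 had no read at all. By counting error alone, a count of 0 in G to K corresponds to a level of at most 0.153 CPM. Counts there also jumped between libraries, with 0, 0, 3818, 0 and 0 reads of Ctsc from G to K. A 0 in these libraries therefore sets no bound on the level in the sample.

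**Figure D3:**
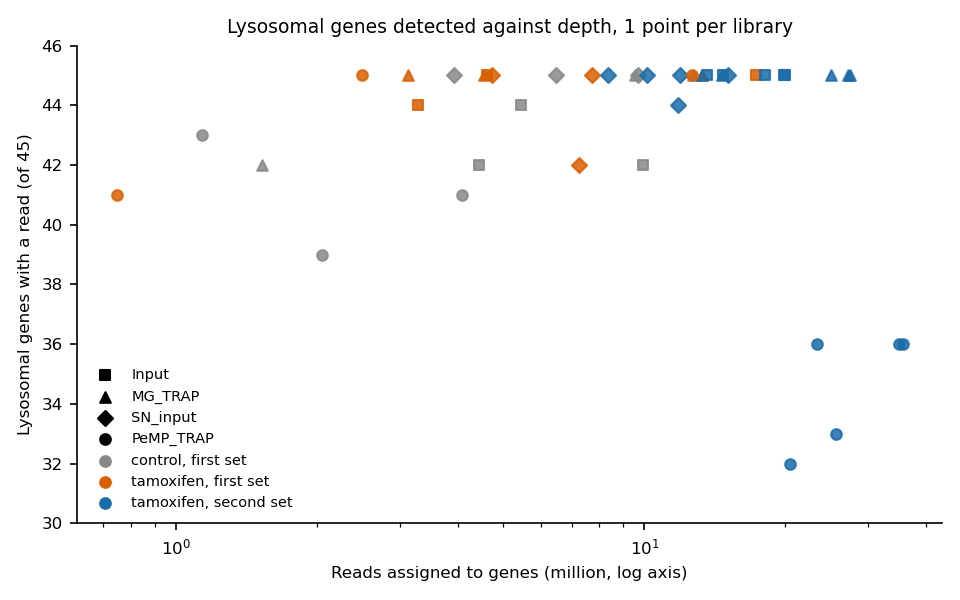
Number of the 45 lysosomal genes with at least 1 read (y axis) against reads assigned to genes (x axis, log axis), with 1 point per library, shape for fraction and colour for treatment and set. The 5 PeMP_TRAP libraries of the second set have the most reads of that fraction and detect 32 to 36 genes, fewer than all other libraries.

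The sets were compared through interactions, since both contained tamoxifen libraries of every fraction. For MG_TRAP against Input, edgeR's quasi-likelihood test called 0 members and 0.0% of all genes, and 1 member had an unadjusted p under 0.05 (Ctsd, -1.58 ± 0.61, beside 5.96% of all genes); DESeq2 also called 0 members (1.76% of all genes). For PeMP_TRAP against SN_input 5 members were less enriched in the second set and none more, where 15.1% of all genes passed (34 or 0.189% higher, 2676 or 14.9% lower). They were Ctsd (-1.78 ± 0.61, adjusted p = 0.0417), Laptm5 (-2.04 ± 0.68, adjusted p = 0.0362), Gaa (-4.81 ± 1.43, adjusted p = 0.0181), Galc (-11.27) and Mcoln1 (-9.89); the last 2 values rest on libraries at 0. For PeMP_TRAP against MG_TRAP 4 members differed in the same direction, where 15.3% of all genes passed (76 or 0.423% higher, 2667 or 14.8% lower): Lgmn (-2.19 ± 0.70), Gaa (-5.38 ± 1.45), Galc (-12.48) and Mcoln1 (-10.15). Both tests use the same PeMP_TRAP libraries.

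The underlying levels show 2 kinds of difference. For Ctsd and Laptm5 both sets were far above SN_input in PeMP_TRAP: Ctsd held 16486, 3889 and 2637 CPM in D, E and F and 2301, 2110.3, 2054, 3143 and 2182 CPM in G to K, and Laptm5 17034, 3329.5 and 2464 and 3268, 1653, 1952, 2603 and 5179 CPM. The log2 fold changes of Ctsd over SN_input were 4.28 in the first set alone and 2.39 in the second (adjusted p = 0.0136 and 8.98e-09), and those of Ctss were 4.20 and 2.83. Gaa instead went from 814, 142 and 66.9 CPM in D, E and F to 10.4, 0, 34.6, 3.82 and 1.52 CPM in G to K, while its SN_input levels were 256, 224 and 192 and 198, 192, 131, 197 and 217 CPM. Galc, the galactosylceramidase that degrades a myelin lipid, held 18.6, 129 and 1.63 CPM in D, E and F and no read in G to K.

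**Figure D4:**
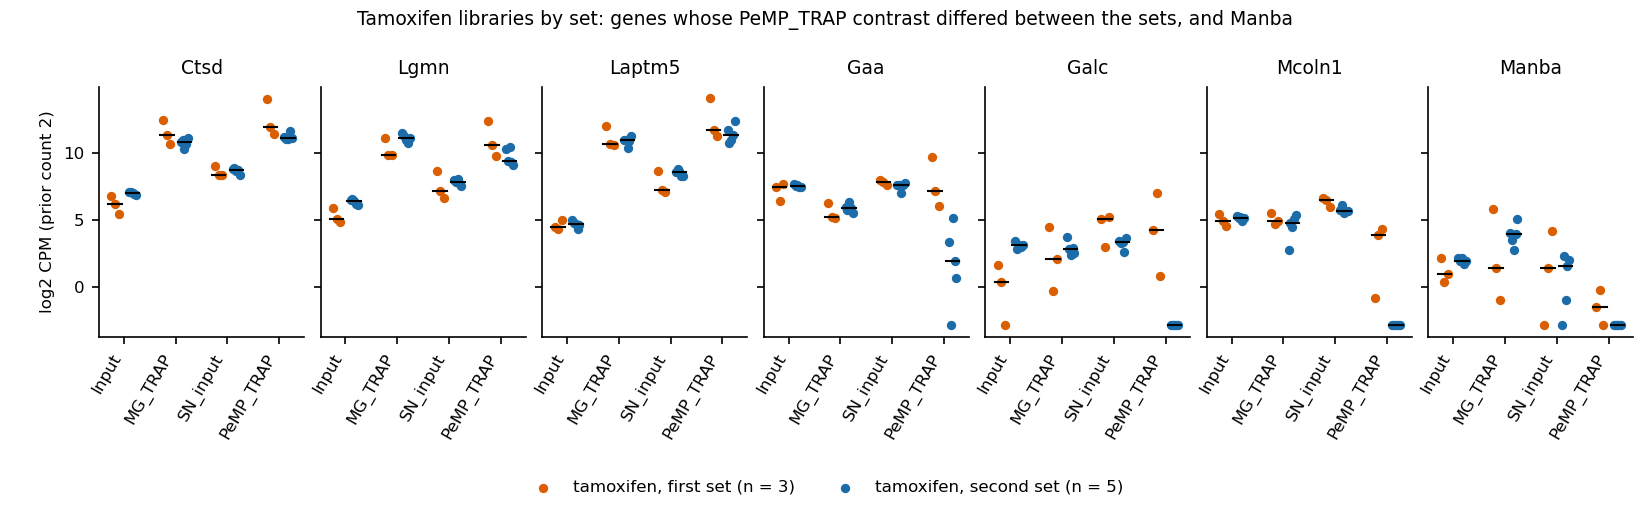
Log2 CPM (prior count 2, y axis) of 7 genes in the tamoxifen libraries of each fraction (x axis), with first-set libraries D to F and second-set libraries G to K as separate points and a line at each median. Ctsd, Lgmn and Laptm5 stay high in PeMP_TRAP in both sets, while Gaa is lower in the second set and Galc and Mcoln1 are at the lowest value in all 5 second-set PeMP_TRAP libraries.

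The calls were also counted within each set alone. In the first set 11 members were higher in MG_TRAP than in Input (2.51% of all genes) and 10 were higher in PeMP_TRAP than in SN_input (2.4%), with none lower in either. In the second set 15 were higher in MG_TRAP (3.82%), and in PeMP_TRAP 12 were higher (4.26%) and 7 lower (39.3%).

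The same fractions were compared in control mice, which received no tamoxifen. In control MG_TRAP against Input edgeR's test called 0 members, with 13 at an unadjusted p under 0.05 (7.45% of all genes), and 0.0135% of all genes passed. DESeq2 called 4 (1.51% of all genes), Ctss, Ctsh, Laptm5 and Manba, all higher in MG_TRAP and named after their values were seen. The median of the members was 1.31 and that of the proteases 2.45. Ctss was at 46.9, 49.2 and 33.2 CPM in Input A, B and C and at 446, 395 and 965 CPM in their MG_TRAP libraries (3.90 ± 0.83, adjusted p = 0.107), so all 3 precipitates held more of it than any Input library. Laptm5 was at 47.9, 17.1 and 7.81 and 294, 99.9 and 564 CPM (3.80 ± 0.91, adjusted p = 0.2). V-ATPase genes had a median of 0.94 there, with 6 of 8 values positive, and the median was positive in all 14 settings tried (0.36 to 1.02). All 15 microglial markers had positive values in the same contrast (median 3.48, 14 at an unadjusted p under 0.05 and 0 called by edgeR), and the 12 neuronal markers had a median of -0.16; their part in the members' values was not tested. For PeMP_TRAP against SN_input edgeR called 0 members and 0.0% of all genes (4 members and 17.5% of all genes unadjusted), and DESeq2 3 members, with Tfeb and Naglu among them as lower, and 8.63% of all genes. For SN_input against Input edgeR called 0 members and 0.0% of all genes (12 members and 6.84% unadjusted), and DESeq2 3 members and 0.907%. In the latter, Ctss was at 692, 665 and 596 CPM in SN_input (3.78 ± 0.82, adjusted p = 0.391).

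Tamoxifen was then compared with control within each fraction of the first set, 3 libraries against 3. Total RNA gave no calls: edgeR's test called 0 members in Input (1 unadjusted, Manba, beside 3.06% of all genes) and 0 in SN_input (0 unadjusted, beside 3.35%), with 0.0% of all genes called in both. DESeq2 called 0 members in both, beside 0.325% and 0.433% of all genes. In MG_TRAP it also called 0 members and 0.0% of all genes, with 18 members at an unadjusted p under 0.05 (15.9% of all genes), and DESeq2 called 12 (5.92% of all genes). The MG_TRAP groups did not overlap for 20 members that were higher (15.3% of all genes) and 6 that were lower (13.3%). Ctss was at 446, 395 and 965 CPM in control and 7682, 6857 and 6561 CPM in tamoxifen MG_TRAP (3.33 ± 0.81, adjusted p = 0.0986). Cd68 was at 35.9, 23.3 and 119 and 862, 708 and 730.1 CPM (3.47 ± 1.10, adjusted p = 0.22), and Npc2 at 34.3, 29.4 and 78.6 and 667, 519 and 545 CPM (3.38 ± 0.97, adjusted p = 0.164).

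The 8 V-ATPase members had the opposite sign in MG_TRAP. All 8 log2 values of tamoxifen against control were negative, with a median of -2.31 beside -0.14 for all genes, and they stayed negative under each of the 13 settings tried. The 11 further V-ATPase genes tested did not share that sign: 6 had positive and 5 negative values, with a median of 0.17 and 0 calls. Atp6v1b2 was at 1629.6, 459.6 and 835 CPM in control and 137, 152 and 60.1 CPM in tamoxifen MG_TRAP (-3.29 ± 0.93, adjusted p = 0.161). Atp6v1a was at 1249.5, 463 and 556 and 115, 149.8 and 104 CPM (-2.83 ± 1.02, adjusted p = 0.243). The groups did not overlap for Atp6v1b2, Atp6v1a, Atp6v1h, Atp6ap1, Atp6ap2 and, outside the V-ATPase, Gaa, and the unadjusted p was under 0.05 for 5 of the 8 V-ATPase members. Of the cell type markers, all 12 neuronal, 10 astrocyte and 10 oligodendrocyte markers had negative values (medians -2.06, -3.85 and -2.30) and all 15 microglial markers positive ones (median 2.96), with 0 called by edgeR and 8, 7, 7 and 15 at an unadjusted p under 0.05. Neuronal markers (12 genes) summed to between 7612 and 9876 CPM in control and between 1760 and 2814 CPM in tamoxifen MG_TRAP of the first set. Border macrophage markers summed to 0 to 11.1 and 136 to 292 CPM there, and plasma and B cell genes to 90.8 to 225 and 611 to 2208 CPM. The part of these cell types was not tested.

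In PeMP_TRAP 11 members were higher in tamoxifen than in control and none was lower, where 11.1% of all genes passed (822 or 5.56% higher, 821 or 5.56% lower). They were the proteases Ctsz (3.43 ± 1.05), Ctsa (3.41 ± 1.04), Ctss (3.36 ± 0.81) and Ctsc, the hydrolases Man2b1 (4.66 ± 1.18), Hexa (4.13 ± 1.16) and Npc2 (3.85 ± 0.99), the membrane proteins Cd68 (3.99 ± 1.12), Cd63 (3.35 ± 1.02) and Laptm5 (3.30 ± 0.89), and Tfeb. Ctss was at 227, 769.6 and 2268 CPM in control and 27154, 8337 and 6751 CPM in tamoxifen PeMP_TRAP (adjusted p = 0.0102). Laptm5 was at 391, 343 and 993 and 17034, 3329.5 and 2464 CPM (adjusted p = 0.0191). In both genes the groups did not overlap, and control C held the highest control value. For Ctsc and Tfeb the control libraries had at most 2 reads, so their fitted values (7.90 and 7.61) depend on the prior count; Tfeb was at 0, 1.39 and 0 and 158, 32.9 and 37.5 CPM.

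Not all proteases followed. Ctsb was at 554, 998 and 4178 CPM in control and 8437, 961 and 649 CPM in tamoxifen PeMP_TRAP (0.39 ± 0.88, adjusted p = 0.804), and Lgmn at 17.6, 147 and 871 and 5113, 1511 and 864 CPM (2.55 ± 0.95, adjusted p = 0.0677). The groups did not overlap for 17 members that were higher (12.2% of all genes) and for 0 that were lower (4.28%). The count of 11 fell to 6 without A, 3 without D and 7 without F, and to 0 when the PeMP_TRAP libraries were fitted alone. The share of all genes called in each of those fits is not given here. V-ATPase genes had 0 calls and a median of -1.67, whose sign changed among the 13 settings tried (-2.23 to 0.41). Endothelial markers (8 genes) summed to 511 to 1786 CPM in control and 5.85 to 985 CPM in tamoxifen PeMP_TRAP of the first set, and plasma and B cell genes to 1.64 to 338 and 217 to 4637 CPM. By edgeR 10 of 15 microglial markers were higher, and 3 of 12 neuronal, 2 of 10 astrocyte and 3 of 10 oligodendrocyte markers were lower. Their part in these values was not tested.

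The enrichment over input was also compared between treatments, as an interaction. For MG_TRAP over Input it called 0 members and 0.0% of all genes, with 10 members and 9.19% of all genes unadjusted and 0 members and 1.37% by DESeq2. For PeMP_TRAP over SN_input it called 0 members, where 1.24% of all genes passed, with 14 members and 19.8% of all genes unadjusted and 11 members and 12.4% by DESeq2. The treatment comparisons share control and tamoxifen libraries with the fraction comparisons above.

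**Figure D5:**
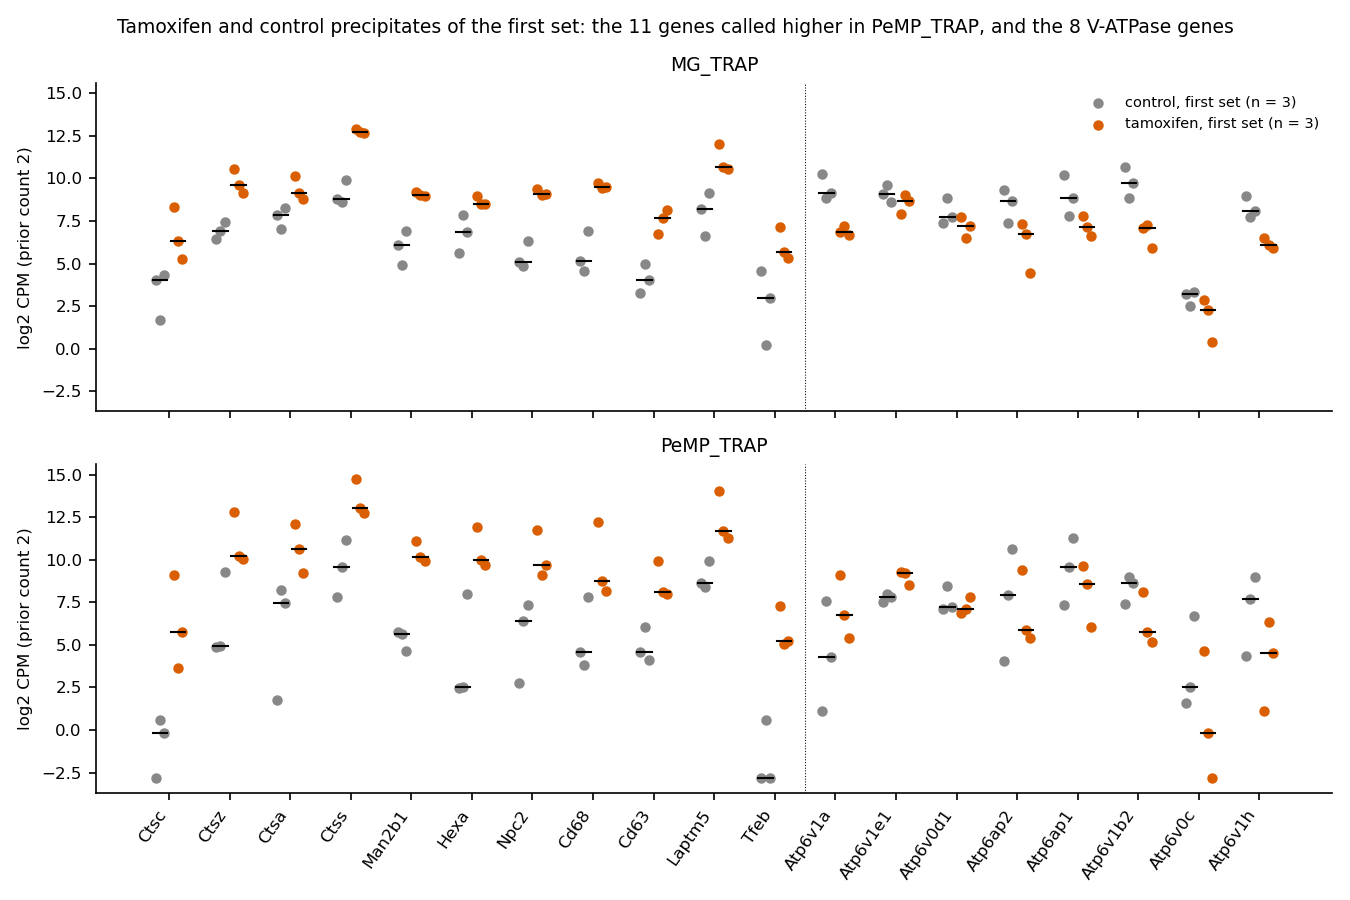
Log2 CPM (prior count 2, y axis) in MG_TRAP (top) and PeMP_TRAP (bottom) of the first set, control against tamoxifen with 3 libraries each and a line at the median, for the 11 members called higher in PeMP_TRAP and, right of the dotted line, the 8 V-ATPase genes. The 11 genes sit higher with tamoxifen by their medians in both precipitates, and the V-ATPase medians sit lower with tamoxifen in all 8 genes in MG_TRAP.

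The authors' deposited table covers the first set and lists all 45 members. By the adjusted p-values of the authors' deposited table (under 0.05), 22 members were higher in tamoxifen MG_TRAP than in Input and none lower, where 6.96% of its 13634 genes were higher and 2.44% lower. For the synaptosome fraction the authors' deposited table has 19 members higher in tamoxifen PeMP_TRAP than in SN_input and none lower, where 9.6% of its genes were higher and 8.27% lower. Its headers do not name the treatment of the input libraries, so its groups may differ from those tested here. For SN_input against Input the authors' deposited table gives Ctss a log2 fold change of 7.28. Its own mean log2 CPM values differ by 3.39 in tamoxifen and 3.74 in control mice. That fold change is close to both differences added together, as for Ctsd (4.31, beside 2.14 and 2.24) and Lamp1 (2.72, beside 1.08 and 1.62). Manba was further off (9.39, beside -0.163 and 4.37). The column is thus on another scale than the fold changes here, and its calls are not reported here.

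Some levels are uncertain because gene models overlap and the strand setting of the counting is not given in the sources used here. Among the members the text names, Ctsd overlaps Gm49369, Ctsa overlaps Neurl2 and Pltp, Ctsb overlaps Fdft1, Ctsz overlaps Nelfcd, Hexa overlaps Tmem202, Grn overlaps Fam171a2, Npc1 overlaps Rmc1, Lamp1 overlaps Grtp1, Atp6v1b2 overlaps Slc18a1, Atp6v1e1 overlaps Slc25a18 and Atp6v1h overlaps Rgs20. Ctss, Ctsl, Ctsc, Manba, Galc and Scarb2 overlap noncoding genes or pseudogenes. Reads in the shared stretches could not be told apart for these pairs.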

How the data were processed

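RNA was measured in 44 libraries of 8 groups (4 fractions, 12 control and 32 tamoxifen libraries). The deposited files hold HTSeq read counts per gene, 1 file per library; per the submitters' processing notes FastQC 0.11.7, Trimmomatic 0.38, Bowtie2 2.3.5, STAR 2.7.0d, HTSeq 0.9.1 and edgeR were used. The genome build, the annotation and the strand setting are not given in the sources used here. A further table by the authors, per its column headers, holds log2 CPM values per library of the first set, log2 fold changes, likelihood ratio scores and p-values of 3 comparisons; it was read only for the sentences that name it. Count files of the first set list 54146 gene identifiers and those of the second set 55359, of which the 50714 shared ones were used. Genes outside them held 0.0232 to 0.795% of assigned reads. Rows that name no gene were left out; multimapped reads made up 13.2 to 58.2% and reads without a feature 1.27 to 25.1% of each library's reads.

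Counts were scaled by TMM and tested with edgeR 4.0.16 (quasi-likelihood test, R 4.3.3) after filterByExpr with a minimum count of 10. P-values were adjusted by the Benjamini-Hochberg method over all genes tested, with a threshold of 0.05. Comparisons within tamoxifen mice used 32 libraries with the set as covariate (15710 genes), those with control mice the 24 libraries of the first set (14771 genes), and set interactions 17961 genes. Levels in CPM use TMM-scaled library sizes of all 44 libraries, and log2 values a prior count of 2. Alternatives were RLE size factors, total counts, no filter, DESeq2 1.42.0, limma voom 3.58.1, each set alone, a replicate block, the compared groups alone, and leaving out each replicate. The code was tested on simulated data. The 45 members, the gene lists and the markers were chosen with earlier results of these data known. Values are given for 31 members with central roles, for the highest and lowest log2 fold change of each class in a comparison, and by name for other members that passed a test. Some genes of the further lists are counted but not reported here by name.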

Additional observations from a re-analysis of the deposited data

Results flagged for a closer look

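Within each fraction the 8 tamoxifen libraries were searched for a single library whose log2 CPM lay far from the others (Dixon's criterion at 95%). Of 124 tests over 31 genes and 4 fractions 42 met it, where chance gives about 1 in 20 if a group is homogeneous. Here each group of 8 pooled libraries of both sets, and genes of a library are not independent: 17 of the 42 came from SN_input D. In Input replicate F stood apart, on the log2 CPM scale, for Ctsb (7.26), Hexa (2.01), Gusb (0.23), Tfeb (0.23), Tfe3 (2.83), Atp6v0d1 (6.51) and Atp6v1a (8.02). In Input replicate E stood apart, on the log2 CPM scale, for Ctsf (5.96), Gaa (6.41), Npc2 (6.47), Lipa (4.58) and Cd68 (4.30). In Input replicate D stood apart, on the log2 CPM scale, for Cd63 (4.37). In MG_TRAP replicate G stood apart, on the log2 CPM scale, for Mcoln1 (2.74). In MG_TRAP replicate F stood apart, on the log2 CPM scale, for Atp6ap2 (4.44). In SN_input replicate D stood apart, on the log2 CPM scale, for Ctsb (10.42), Ctsf (7.95), Ctsl (8.29), Ctsz (8.56), Hexa (8.81), Gusb (-0.94), Asah1 (7.51), Npc1 (6.57), Lipa (-1.59), Psap (11.52), Grn (9.37), Lamp1 (10.07), Cd68 (8.23), Laptm4a (9.25), Tfeb (-2.81), Atp6ap1 (9.30) and Atp6ap2 (9.31). In SN_input replicate I stood apart, on the log2 CPM scale, for Gaa (7.03). In PeMP_TRAP replicate D stood apart, on the log2 CPM scale, for Ctsb (13.04), Ctsd (14.01), Ctsz (12.80) and Lgmn (12.32). In PeMP_TRAP replicate I stood apart, on the log2 CPM scale, for Hexa (4.38) and Atp6v1a (-2.81). In PeMP_TRAP replicate G stood apart, on the log2 CPM scale, for Gusb (-2.81). In PeMP_TRAP replicate J stood apart, on the log2 CPM scale, for Npc2 (2.76). In PeMP_TRAP replicate H stood apart, on the log2 CPM scale, for Atp6v0d1 (3.90). SN_input D also had the fewest genes detected of the tamoxifen SN_input libraries (10023). Whether these libraries differed in handling was not tested.

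The enrichment over input differed between the synaptosome fraction and the whole homogenate, by edgeR's interaction test, for Lgmn (-2.10), Ctss (-3.45), Ctsh (-3.56), Gm2a (-1.92), Manba (-8.58), Laptm5 (-2.56) and Cd68 (-2.60), as log2 differences of synaptosome minus whole. All of these but Manba were also called higher in SN_input than in Input. Between the sets, the log2 enrichment of PeMP_TRAP over SN_input differed, second minus first, for Ctsd (-1.78), Gaa (-4.81), Galc (-11.27), Laptm5 (-2.04) and Mcoln1 (-9.89). The log2 ratio of PeMP_TRAP to MG_TRAP differed between the sets in the same sense for Lgmn (-2.19), Gaa (-5.38), Galc (-12.48) and Mcoln1 (-10.15). Values for Manba, Galc and Mcoln1 rest on PeMP_TRAP libraries with no read and depend on the prior count.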

How the results depend on the processing

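Counts of members called are given here where they moved by over 1.5 times. Here and in the next paragraph they stand without the share of all genes called in the same fit. They show how far a count moved and nothing particular to the members. MG_TRAP against Input in tamoxifen mice (20 called) gave 13 with limma voom, 11 in the first set alone and 37 with the compared groups alone. PeMP_TRAP against SN_input (16) gave 10 in the first set. PeMP_TRAP against MG_TRAP (5) gave 3 without a filter, 3 with DESeq2, 18 with voom, 0 in the first set and 9 in the second. SN_input against Input (13) gave 7 with RLE, 5 with total counts, 7 with DESeq2, 1 with voom, 0 in the first set and 25 alone. The enrichment difference (7) gave 0 in the first set and 11 in the second. In controls, MG_TRAP against Input (0) gave 1 with RLE, 1 without a filter, 4 with DESeq2 and 2 with a replicate block, PeMP_TRAP against SN_input (0) gave 3 with DESeq2, and SN_input against Input (0) gave 1 without a filter, 3 with DESeq2 and 2 with the block. MG_TRAP tamoxifen against control (0) gave 1 with RLE, 1 without a filter, 12 with DESeq2 and 14 with voom. PeMP_TRAP tamoxifen against control (11) gave 19 with DESeq2 and 0 alone. The treatment difference in MG_TRAP enrichment (0) gave 1 with voom, and that in PeMP_TRAP enrichment (0) gave 3 with total counts, 2 without a filter, 11 with DESeq2, 4 with voom and 3 with the block. The set interaction of PeMP_TRAP against SN_input (5) gave 3 with RLE, total counts, no filter and DESeq2 and 11 with voom, and that of PeMP_TRAP against MG_TRAP (4) gave 15 with voom. The cause was not tested, except that single sets hold fewer samples.

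Leaving out each replicate in turn gave 17 to 20 for MG_TRAP against Input, 16 to 18 for PeMP_TRAP against SN_input, 2 to 7 for PeMP_TRAP against MG_TRAP, 9 to 13 for SN_input against Input, 4 to 10 for the enrichment difference, 3 to 12 for PeMP_TRAP tamoxifen against control, 0 to 1 for the treatment difference in PeMP_TRAP enrichment, 2 to 5 and 2 to 6 for the set interactions of PeMP_TRAP against SN_input and MG_TRAP, and 0 to 0 elsewhere. With the replicate letter as a block the 5 tamoxifen comparisons gave 20, 17, 4, 12 and 6. The letters were not taken as pairs in the main fits, as the labels do not say that a letter is 1 animal. Deviations of same-letter samples correlated at -0.039 to 0.224 (median 0.0215), above 0.1 in 7 of 66 cases. In 38 of 66 cases a sample correlated best with its own letter. A random choice among the 3 or 5 letters of a group would match less often, so pairing by letter remains possible. Of the single-gene values 5 were counted as reversed: with voom, Asah1 in PeMP_TRAP against SN_input (-3.22) and, in PeMP_TRAP against MG_TRAP, Ctsf (-3.15), Gaa (-2.31) and Lipa (-5.18), and in the second set alone Gaa (-2.74). Another 7016 were counted as the same, 530 moved, 178 gained and 230 lost a call. More values than these 5 changed sign. In PeMP_TRAP against MG_TRAP between 4 and 14 of the 16 hydrolases were positive over 18 settings. With total counts all genes split into 277 higher and 31 lower for the treatment difference in PeMP_TRAP enrichment, against 135 and 48. Depth limits genes near the floor of 0.0792 to 4.89 CPM.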
